A study of Mus musculus with 16 samples.

Results

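The genes described here are the ligands and receptors of axon guidance in the mouse cerebellum, namely the semaphorins, plexins, neuropilins, ephrins, Eph receptors, netrins, Dcc and Unc5 receptors, Slits and Robos. They were taken by symbol (names starting with Sema, Plxna to Plxnd, Epha, Ephb, Efna, Efnb, Slit1 to Slit3, Robo or Unc5, plus Ntn1, Ntn4, Dcc, Nrp1 and Nrp2) from all genes that the 1-colour Agilent arrays name, which gave 69 of 22911 genes, carried by 113 of 56605 probes. A probe was kept when some group had it above background on each of its 4 arrays, which left 65 of the 69 genes by 99 probes. Of the other members, Sema3g was left out because of a missing value, and Unc5d, Unc5cl and the antisense gene Plxna4os1 were above background on 3, 0 and 1 arrays. Unc50, Unc5cl and Plxna4os1 match the rule by name but are not guidance ligands or receptors, so 64 guidance genes were measured. Each gene is given by its brightest kept probe, and that probe was above background on all 16 arrays for 64 of the 65 genes, Epha10 being the exception.

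Cerebellar RNA came from WT and Atm-/- littermates of the strain B6;129S4-Atmtm1Bal/J, a constitutive Atm knockout line, with 1 mouse per array and 4 arrays per group. From 6 weeks of age the mice drank plain water (WT veh, Atm-/- veh) or water with nicotinamide riboside, a precursor of NAD+, at 12 mM or 3.5 mg/ml (WT NR, Atm-/- NR), over 2 months. All mice are labelled male and 3.5 months old. The comparisons asked what loss of Atm did to the tissue, and whether NR supplementation changed it.

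Guidance cues steer growing axons and migrating neurons, and many stay expressed in adult neurons, where they act on synapses and spines. Semaphorins signal through plexins, and the secreted class 3 semaphorins need a neuropilin as co-receptor. Ephrins are bound to the membrane and activate Eph receptor tyrosine kinases on the neighbouring cell. Netrins attract axons through Dcc and repel them through Unc5 receptors, and Slits repel through Robo receptors. In the cerebellum, Sema6a with plexin A2 and netrin with Unc5c are known for their roles in granule cell migration.

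Of the 7 members called below, 3 have a single start in the RefSeq promoter table (build GRCm38.p6). The 250 bases before each start are shown for them, since they are the members that passed the test with an unambiguous promoter. Capitals mark GGGCGG on either strand, the GC box, which 32.7% of the 32851 listed promoters hold in this window. Sema4g had 3 of them, whereas Ephb1 and Unc5c had 0.
Sema4g (chr19:44989094-44989343, + strand): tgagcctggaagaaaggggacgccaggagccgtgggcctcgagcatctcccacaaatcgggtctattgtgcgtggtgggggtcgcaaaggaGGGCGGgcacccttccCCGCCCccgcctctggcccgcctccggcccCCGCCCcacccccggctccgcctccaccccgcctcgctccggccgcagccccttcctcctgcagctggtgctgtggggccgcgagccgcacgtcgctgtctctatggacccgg
Ephb1 (chr9:102354694-102354943, - strand): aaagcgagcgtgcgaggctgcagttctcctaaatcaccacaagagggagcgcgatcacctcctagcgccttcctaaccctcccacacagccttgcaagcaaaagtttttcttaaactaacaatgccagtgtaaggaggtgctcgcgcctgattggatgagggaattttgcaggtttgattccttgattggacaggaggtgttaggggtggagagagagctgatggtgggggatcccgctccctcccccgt
Unc5c (chr3:141465314-141465563, + strand): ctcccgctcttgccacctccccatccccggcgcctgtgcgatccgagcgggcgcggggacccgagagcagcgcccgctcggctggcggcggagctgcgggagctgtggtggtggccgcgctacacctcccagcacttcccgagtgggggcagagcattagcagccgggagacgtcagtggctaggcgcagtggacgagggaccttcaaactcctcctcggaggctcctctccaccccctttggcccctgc
The G and C share was 73.2% for Sema4g, 54% for Ephb1 and 71.2% for Unc5c. Neither TATAAA, found in 12.4% of all listed promoters, nor CACGTG, found in 6.02%, was present in these windows. These matches describe the letters and were not measured by the arrays.

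All 10 Purkinje cell and all 10 granule cell genes of the marker lists were above background on all 16 arrays, but so were some forebrain and choroid plexus genes, among them Tbr1 and Ttr, so detection alone does not check the tissue label. Probes above background numbered 37843 to 42559 on the WT veh arrays and 36402 to 40010 with NR. They numbered 39134 to 41905 on the Atm-/- veh arrays and 34945 to 37817 with NR. Against the male label, 4 arrays had no signal of Y-linked genes, of which WT NR held 2, each Atm-/- group 1 and WT veh 0. The same 4 arrays, and no others, had signal of Xist, an RNA of female cells. By these signals, sex was not balanced over the groups. Every WT array lay on one slide and every Atm-/- array on another, and veh and NR lay on separate rows of each slide, so genotype cannot be told apart from slide, nor treatment from row. Log2 values below are of the quantile normalized signal, differences are in log2 units with their SE, and a gene is called at a limma Benjamini-Hochberg adjusted p under 0.05 over 37253 probes.

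WT veh 4 stood apart from the other arrays in markers of other brain regions, and many guidance genes were at their highest there. It was the highest of the 16 arrays for 25 of the 65 members, and no other array was the highest for more than 6. The same count was not made over all named genes, so it does not set the members apart. The mean level of 5 choroid plexus genes lay 5.84 above their average on that array against -1.74 to 0.90 on the other 15, and that of 5 forebrain neuron genes lay 4.24 above it against -1.34 to 1.56. The Purkinje cell and granule cell lists were at their lowest there, at -0.37 each. Slit1, a secreted repellent, had a log2 signal of 12.48 there and of 7.28, 6.44 and 6.19 on the other WT veh arrays.

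A further 4 arrays, replicates 2 and 3 of WT NR and of Atm-/- NR, shared a high signal of Slit1 and of Sema3f, a class 3 semaphorin. Both genes, like Sst and Lhx2 below, were singled out after their values were seen. Slit1 was at 9.77 and 9.36 on the WT NR pair and at 8.93 and 9.34 on the Atm-/- NR pair, and the other 11 arrays apart from WT veh 4 lay between 6.09 and 7.52. Sema3f was at 12.61, 12.91, 12.70 and 12.81 on those 4 arrays and between 11.09 and 11.72 on all others, WT veh 4 included. The interneuron peptide gene Sst and the forebrain factor Lhx2 were high on the same 4 arrays and on WT veh 4. Sst lay between 15.18 and 15.94 on these 5 arrays and between 8.93 and 11.54 on the other 11, and Lhx2 between 10.38 and 13.21 against 2.20 to 6.32. The part of such RNA in the results below was not tested, and the called members under NR in Atm-/- mice are also given without these 5 arrays.

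**Figure D1:**
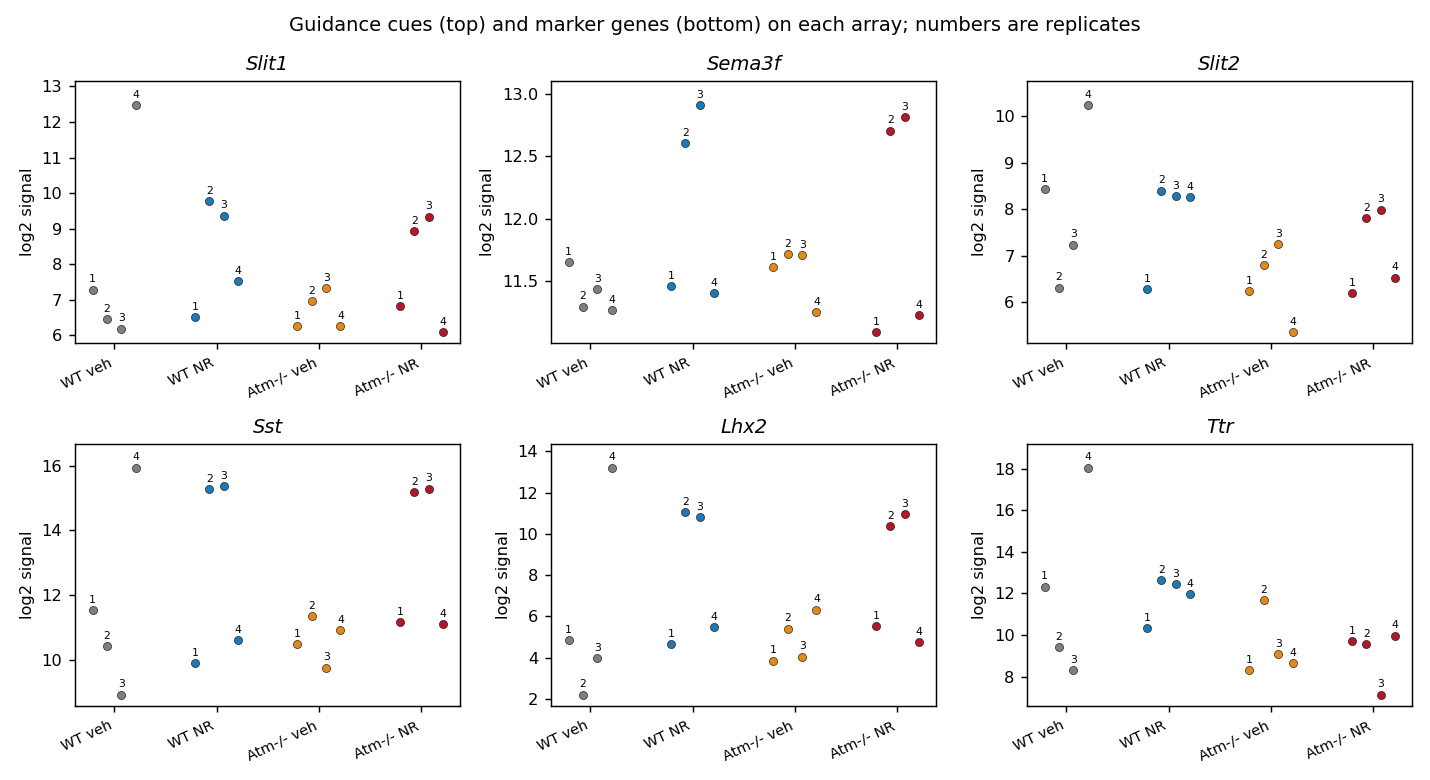
Log2 signal (y axis) of Slit1, Sema3f and Slit2 (top) and of the markers Sst, Lhx2 and Ttr, a choroid plexus gene (bottom), by group (x axis); each point is 1 array and carries its replicate number. Replicates 2 and 3 of both NR groups are high for Slit1, Sema3f, Sst and Lhx2, and WT veh 4 is the highest array for Slit1, Slit2, Sst, Lhx2 and Ttr but not for Sema3f.

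NR in Atm-/- mice gave the only calls among the members. In Atm-/- NR against Atm-/- veh, 11.5% of all named genes were called, and 7 of the 65 members (10.8%) were, a share near that background. Sema4g, Sema4d, Sema6d, Plxnb2 and Unc5c fell, where 4.8% of all named genes fell, and Ephb1 and Robo2 rose, where 6.67% of them rose. The 2 groups did not overlap for 11 members (16.9%), against 26.3% of all named genes. Of the 11, 5 were higher and 6 lower in Atm-/- NR, beside 16% and 10.3% of all named genes. Over the 65 members the median difference was 0.05, against 0.04 over all named genes.

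Among the ligands, 3 transmembrane semaphorins fell. Sema4g was at 12.21, 11.96, 11.74 and 12.10 in Atm-/- veh and at 11.51, 11.27, 11.15 and 11.36 in Atm-/- NR. All 4 Atm-/- NR arrays lay below all 4 Atm-/- veh arrays, and the fall of 0.68 ± 0.15 (SE, n = 4 per group) had a limma adjusted p of 0.0192. Sema4d, a plexin B1 and B2 ligand, was at 11.24, 11.07, 11.18 and 10.90 in Atm-/- veh and at 10.51, 10.59, 10.54 and 10.63 in Atm-/- NR. Again the groups were separate, with the 4 NR arrays close together, and the fall was 0.53 ± 0.12 (limma adjusted p = 0.0202). Sema6d, a ligand of plexin A1, was at 13.45, 13.41, 13.13 and 13.54 in Atm-/- veh and at 13.11, 12.76, 12.83 and 12.95 in Atm-/- NR. The groups were separated only narrowly, by Atm-/- veh 3 and Atm-/- NR 1, and the fall was 0.47 ± 0.11 (limma adjusted p = 0.0238). Of the 2 dimmer Sema6d probes, 1 was lower by 0.11 and 1 higher by 0.22, and neither was called. Of the 12 class 4 to 7 semaphorins, 9 were lower and 3 higher in Atm-/- NR, with a median of -0.10.

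Class 3 semaphorins lay on the other side, and none of them was called. All 6 had a higher mean in Atm-/- NR, by 0.31 to 0.47 with a median of 0.39. Sema3c was at 9.78, 9.82, 9.96 and 9.53 in Atm-/- veh and at 10.05, 10.38, 10.07 and 10.14 in Atm-/- NR. It was the 1 member of the class whose groups did not overlap, and its difference of 0.39 ± 0.13 had a limma adjusted p of 0.0829. Sema3e, a plexin D1 ligand, differed by 0.47 ± 0.17 (limma adjusted p = 0.085). Sema3f differed by 0.39 ± 0.41, and only replicates 2 and 3 of Atm-/- NR lay above Atm-/- veh, the other 2 being at 11.09 and 11.22. Without the 5 arrays high in Lhx2, 4 class 3 semaphorins were higher and 2 lower, with a median of 0.28.

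Among the receptors, Plxnb2, a class 4 semaphorin receptor of cerebellar granule cells, fell. It was at 13.62, 13.70, 13.76 and 13.82 in Atm-/- veh and at 13.51, 13.34, 13.20 and 13.25 in Atm-/- NR. The groups did not overlap and the fall was 0.40 ± 0.08 (limma adjusted p = 0.0142). Plxna4, a receptor of class 3 and class 6 semaphorins, did not overlap either but missed the call, at 12.67, 12.54, 12.43 and 12.79 against 12.26, 12.13, 12.37 and 12.22. Its difference was -0.37 ± 0.16 (limma adjusted p = 0.158). The other 7 plexins were not called, and Plxna1 with -0.40 and Plxna2 with 0.29 were the farthest in each direction. Nrp1 and Nrp2, the neuropilins, differed by 0.25 and -0.02.

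Ephb1, an ephrin B receptor, rose in Atm-/- NR. It was at 12.40, 12.38, 12.12 and 12.29 in Atm-/- veh and at 12.72, 13.05, 13.16 and 12.65 in Atm-/- NR. All NR arrays were above all veh arrays, with replicates 2 and 3 the highest, and the difference was 0.60 ± 0.15 (limma adjusted p = 0.0244). Epha4 was at 10.14, 10.07, 10.27 and 9.96 in Atm-/- veh and at 10.65, 10.39, 10.83 and 10.35 in Atm-/- NR, without overlap, but its difference of 0.44 ± 0.22 was not called (limma adjusted p = 0.213). Ephb2 was lower without overlap, by 0.20 ± 0.08 (limma adjusted p = 0.125). Of the 14 Eph receptors 7 were higher and 7 lower, and of the 8 ephrins 4 were higher and 4 lower, with none of the ephrins called.

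Robo2, a Slit receptor, rose from 9.91, 10.04, 10.12 and 9.69 in Atm-/- veh to 10.41, 10.85, 10.98 and 10.41 in Atm-/- NR. The groups did not overlap and the difference was 0.72 ± 0.21 (limma adjusted p = 0.0471). Its dimmer probe differed by 0.30 and was not called. All 4 Robos and all 3 Slits had a higher mean in Atm-/- NR, with medians of 0.46 and 0.72. Robo4 hardly differed, however, and turned sign in 6 of 29 settings. Slit1 (1.10 ± 1.22) and Slit2 (0.72 ± 0.76) differed by less than their SE. Without the 5 arrays high in Lhx2, 1 Slit was higher and 2 were lower, with a median of -0.06, and 3 Robos were higher and 1 lower, with a median of 0.27.

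Unc5c, a repulsive netrin receptor, was the 1 called member whose groups overlapped. It was at 11.90, 11.83, 11.53 and 11.99 in Atm-/- veh and at 11.64, 11.29, 11.32 and 11.46 in Atm-/- NR, so that Atm-/- NR 1 exceeded Atm-/- veh 3. The fall was 0.38 ± 0.11 (limma adjusted p = 0.0414). A dimmer Unc5c probe went the other way, being higher by 0.10 in Atm-/- NR. Dcc, Unc5a and Unc5b also had lower means, by 0.47, 0.11 and 0.06 on their brightest probes, and were not called. The dimmer Dcc probe went the other way, by 1.10 ± 0.54, and was not called. So did the dimmer Unc5b probe, also not called. It was at 11.86, 11.95, 11.63 and 11.75 in Atm-/- veh and at 12.11, 11.96, 12.15 and 12.20 in Atm-/- NR, without overlap. The direction of this family thus depended on the probe chosen.

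Probes of 1 gene did not always move together, and 13 of the 28 members with more than 1 kept probe had probes in both directions. A dim probe of Sema5a, a transmembrane semaphorin, also passed the threshold, but it was above background on only 2 of the Atm-/- veh and 1 of the Atm-/- NR arrays. It had been kept through WT veh alone, so no change is given for it. The bright Sema5a probe differed by 0.20 ± 0.14 (limma adjusted p = 0.379). A dimmer Epha7 probe fell by 0.57 ± 0.16 (limma adjusted p = 0.0427), whereas the brightest of the 4 Epha7 probes differed by -0.09 ± 0.11.

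**Figure D2:**
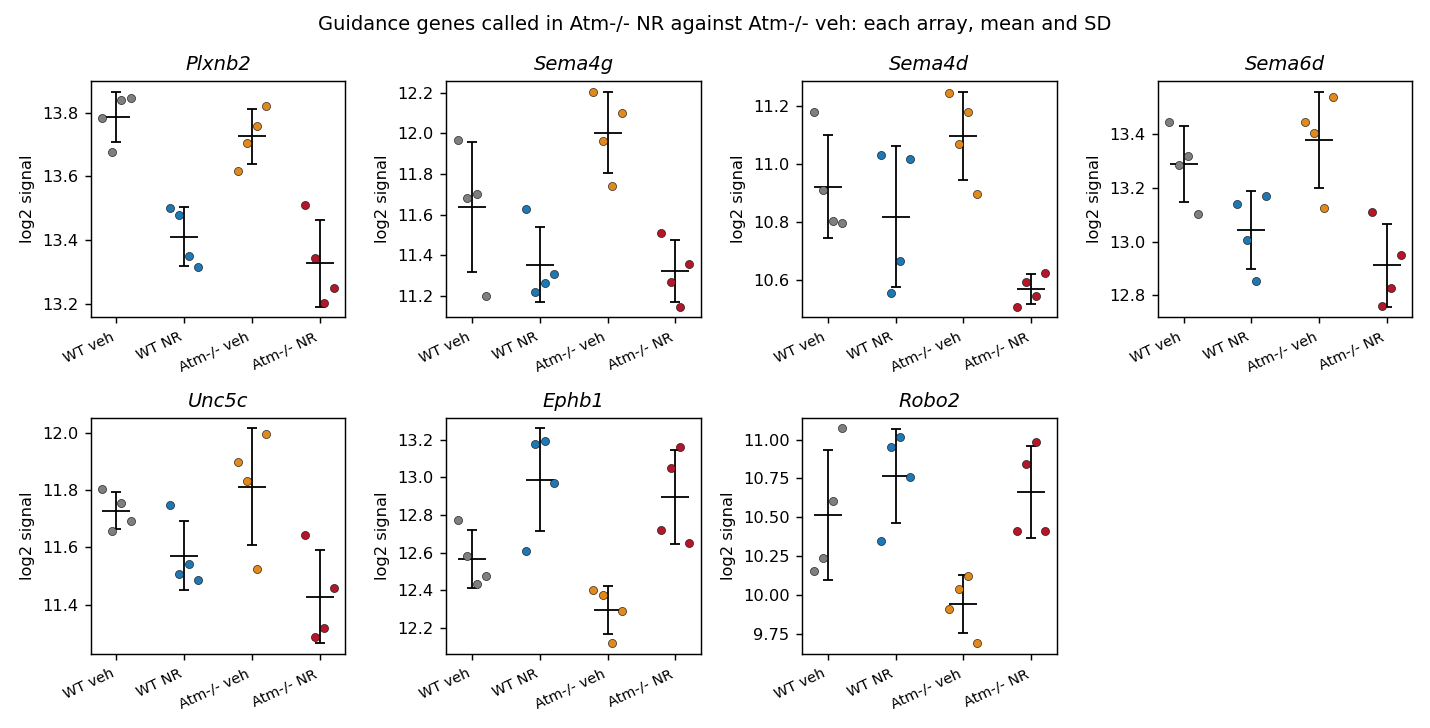
Log2 signal (y axis) of the 7 called members by group (x axis); points are arrays in the order of their replicate numbers, the long dash is the mean and the bar the SD of 4 arrays, and the y axes do not start at 0. Unc5c is the only one of the 7 in which Atm-/- veh and Atm-/- NR overlap, and Plxnb2 is also lower in WT NR than in WT veh without overlap.

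These calls did not hold in several subsets of arrays. Without Atm-/- NR 3 none of the 7 members passed and 3.17% of all named genes did. The limma adjusted p of the 7 then lay between 0.0501 (Plxnb2) and 0.136 (Robo2). The differences of these 2 genes were -0.36 and 0.61 there, against -0.40 and 0.72 with all arrays. None passed on the 12 arrays with Y-linked signal (limma adjusted p from 0.0543 to 0.0898), where 1.15% of all named genes did. None passed either without the 5 arrays high in Lhx2 (limma adjusted p from 0.106 to 0.354), where 0.0657% did. That last subset keeps only 2 Atm-/- NR arrays. All 7 kept their direction in each of the 29 settings computed for them. Where the 2 groups did not overlap, leaving out an array could hardly turn the sign, and settings without a WT array barely touch this comparison. The kept direction is therefore no added support.

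Loss of Atm without NR left no member called. In Atm-/- veh against WT veh, 0 of the 65 members passed the limma test, against 0.0538% of all named genes. At an unadjusted p under 0.05 there were 14 members, 3 higher and 11 lower in Atm-/- veh, beside 16.8% of all named genes, 7.1% higher and 9.73% lower. Without WT veh 4 this count was 10, with 5 higher and 5 lower, beside 17.8% of all named genes, 5.98% higher and 11.9% lower. The groups did not overlap for 9 members (13.8%), 2 higher and 7 lower, against 8.74% of all named genes, 3.9% higher and 4.84% lower. The median over the members was -0.06, against -0.03 over all named genes.

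The lower values in Atm-/- veh were largest in the Slit and Robo families, where WT veh 4 set much of the size. Slit2 differed by -1.64 ± 0.76 with all arrays and by -0.91 without WT veh 4, and Slit1 by -1.40 ± 1.22 and by 0.06. Without that array 2 Slits were higher and 1 lower. Robo3, a divergent Robo of commissural axons, was at 6.75, 6.17, 6.71 and 8.52 in WT veh and at 5.86, 5.88, 5.64 and 5.93 in Atm-/- veh. The groups did not overlap, and the difference was -1.21 ± 0.44 (limma adjusted p = 0.256) with all arrays and -0.72 without WT veh 4. Robo2 was at 10.15, 10.24, 10.60 and 11.07 in WT veh, above all 4 Atm-/- veh arrays given earlier, and differed by -0.57 ± 0.21 (limma adjusted p = 0.259), or by -0.39 without WT veh 4. All 4 Robos were lower with that array (median -0.47) and without it (median -0.28).

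Epha4, a receptor for ephrins of both classes, was at 10.72, 10.42, 10.66 and 11.75 in WT veh, above all Atm-/- veh arrays. Its difference was -0.78 ± 0.22 (limma adjusted p = 0.198) and, without WT veh 4, -0.49 ± 0.13 (limma adjusted p = 0.162). Sema3b was at 9.35, 9.43, 9.67 and 11.79 in WT veh and at 9.27, 9.27, 9.28 and 8.91 in Atm-/- veh, and its difference was -0.88 ± 0.43 with all arrays and -0.30 without WT veh 4. Plxnd1, the Sema3e receptor, and Efnb2, an ephrin of vessels and neurons, were also lower without overlap, by 0.50 ± 0.20 and 0.33 ± 0.14, and by 0.23 and 0.20 without WT veh 4. Epha6 and Unc5a, the farthest of their families that overlapped, differed by -0.92 and -0.27 with all arrays and by -0.45 and 0.03 without WT veh 4. None of these was called.

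Sema4c, a plexin B2 ligand, and Ephb2 were higher in Atm-/- veh without overlap. Sema4c was at 14.77, 14.74, 14.88 and 14.85 in WT veh and at 15.07, 15.21, 15.34 and 14.91 in Atm-/- veh, a difference of 0.32 ± 0.12 (limma adjusted p = 0.275). It was 0.33 without WT veh 4. Ephb2 was between 8.89 and 8.91 in WT veh and between 8.97 and 9.13 in Atm-/- veh, a difference of 0.12 ± 0.08. The largest differences of the other families were 0.53 ± 0.36 for the ephrin Efna2, 0.37 ± 0.15 for Sema4g, -0.42 ± 0.51 for Ntn4 and -0.27 ± 0.17 for Nrp1. Efna2 was at 10.94 on Atm-/- veh 1, against 9.14, 9.62 and 9.38 on the other Atm-/- veh arrays.

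**Figure D3:**
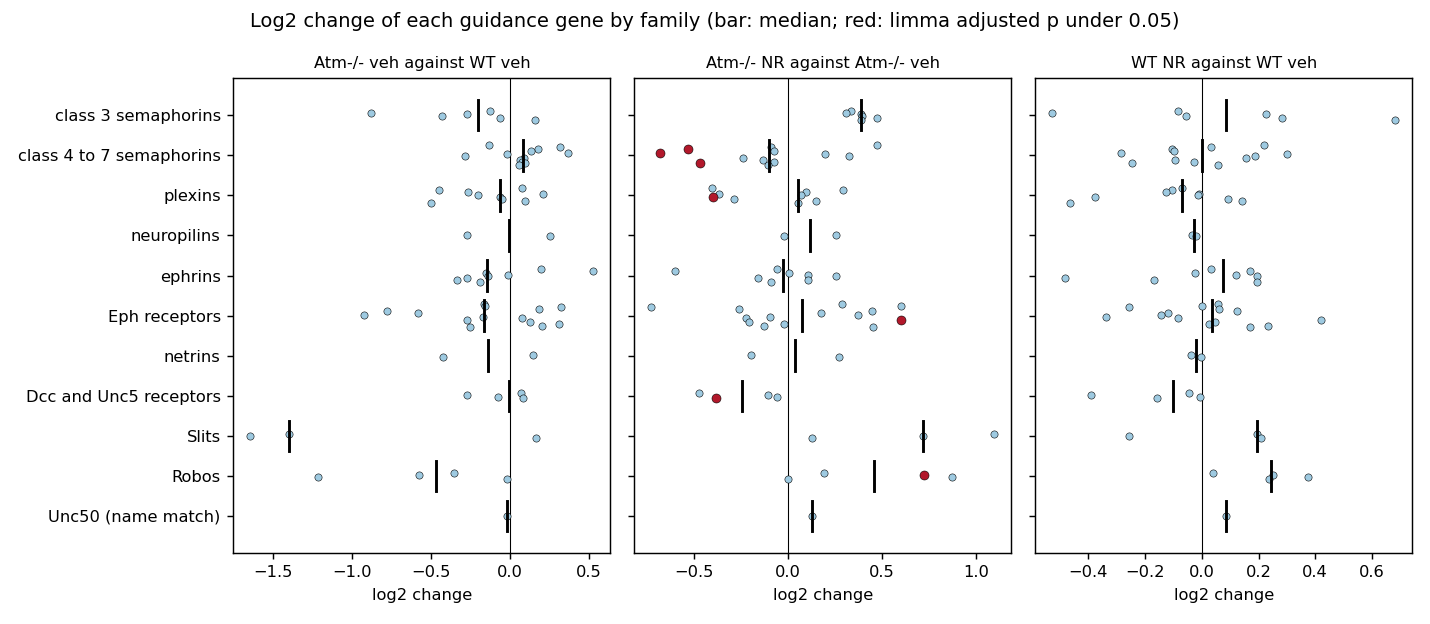
Difference of the group means in log2 units (x axis) for each of the 65 members, by family (y axis), in 3 comparisons with separate scales; each point is a gene, red points are called and the black bar is the family median. The 6 class 3 semaphorins, 4 Robos and 3 Slits lie above 0 in Atm-/- NR against Atm-/- veh, Robo4 only just. Red points occur in that comparison alone.

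**Figure D4:**
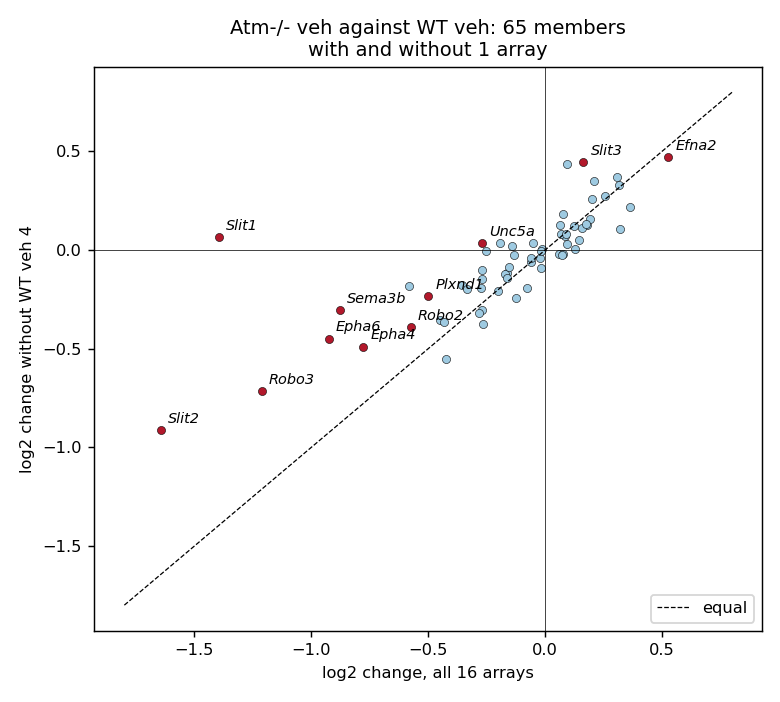
Difference of Atm-/- veh from WT veh in log2 units for the 65 members with all 16 arrays (x axis) and without WT veh 4 (y axis); each point is a gene, red points are named, and the dashed line marks equal values. Slit1 moves from -1.40 to 0.06 and Slit2 from -1.64 to -0.91.

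In WT mice, NR left no member called. In WT NR against WT veh limma called 0 probes of the whole array (0% of named genes), and 7 members had an unadjusted p under 0.05, 2 higher and 5 lower, where 8.84% of all named genes did, 4.03% higher and 4.8% lower. Without WT veh 4 there were 13 such members, 7 higher and 6 lower, beside 11.2% of all named genes. The groups did not overlap for 4 members (6.15%), against 4.58% of all named genes. Plxnb2 was one of them, at 13.78, 13.68, 13.84 and 13.85 in WT veh and at 13.50, 13.48, 13.35 and 13.31 in WT NR. The difference was -0.38 ± 0.08 (limma adjusted p = 0.371) and -0.36 without WT veh 4. Efnb1, an X-linked ephrin, was at 11.34, 10.98, 11.13 and 11.64 in WT veh and at 10.93, 10.87, 10.72 and 10.65 in WT NR, a difference of -0.48 ± 0.13 (limma adjusted p = 0.49) and of -0.36 without WT veh 4. Epha7 was lower by 0.34 ± 0.11 (limma adjusted p = 0.547). Robo4, a Robo of vessels, was higher by 0.24 ± 0.12 (limma adjusted p = 0.701).

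The NR difference could be set side by side in the 2 genotypes, which share no array in these comparisons. It had the same sign in 40 of the 65 members (61.5%), against 71.3% of all named genes. Across the 65 genes, which are not independent replicates and whose NR arrays lie on the same row of each slide, Pearson's r was 0.40 and Spearman's coefficient 0.41, as a description. Over all named genes these were 0.38 and 0.49. Plxnb2 was the 1 of 65 members whose groups did not overlap in either genotype, at -0.40 in Atm-/- and -0.38 in WT. Among all named genes this held for 393 of 16737, so it does not set the members apart. The other called genes differed in WT by -0.28 (Sema4g), -0.10 (Sema4d), -0.25 (Sema6d), -0.16 (Unc5c), 0.42 (Ephb1) and 0.25 (Robo2), each with the sign seen in Atm-/- mice. The share of equal signs among all genes called in Atm-/- mice was not computed, so these signs are only a description.

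**Figure D5:**
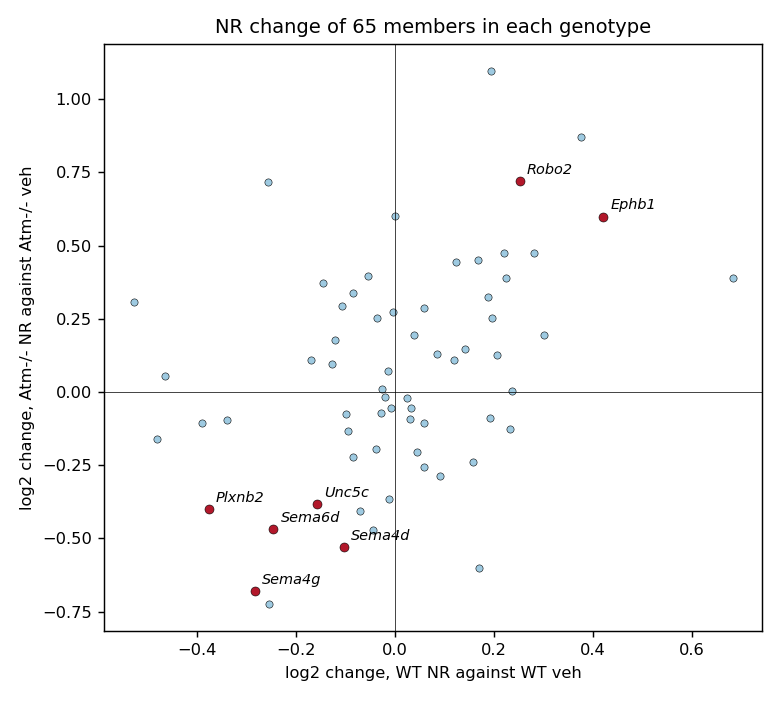
NR difference of each of the 65 members in log2 units in WT mice (x axis) and in Atm-/- mice (y axis); each point is a gene and red points are the 7 members called in Atm-/- mice. All 7 red points have the same sign on both axes, with Plxnb2 at -0.38 and -0.40.

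A test of the difference between both NR effects called 0 of the 65 members and 0% of all named genes by limma, and 2 members, Sema4d and Ephb2, had an unadjusted p under 0.05, where 5.96% of all named genes did and 2.05% in that direction. The NR effect of Sema4d was lower in Atm-/- than in WT mice by 0.43 ± 0.17, and that of Ephb2 by 0.25 ± 0.11 (limma adjusted p = 0.839 for both). For Plxnb2 the difference between the effects was -0.02 ± 0.12.

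Under NR, genotype left no member called. In Atm-/- NR against WT NR, 0 of 65 members passed, against 0.0597% of all named genes, and 3 members had an unadjusted p under 0.05, where 4.34% of all named genes did. Epha4, Sema6a, Robo4 and Plxnb1 were lower in Atm-/- NR without overlap (6.15% of members, against 4.53% of all named genes, 1.8% of them lower). Epha4 was at 10.86, 11.08, 10.96 and 11.14 in WT NR, and the difference of -0.46 ± 0.22 had a limma adjusted p of 0.957. Sema6a, the plexin A2 and A4 ligand, differed by -0.31 ± 0.13, Robo4 by -0.26 ± 0.12 and Plxnb1, the Sema4d receptor, by -0.12 ± 0.08.

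Sema7a, Robo3 and Robo4 lie within 20 Mb of Atm in the gene table. Sema7a, a membrane-anchored semaphorin, differed by 0.06 ± 0.14 between Atm-/- veh and WT veh and by -0.11 ± 0.14 between Atm-/- NR and WT NR. For Robo4 the corresponding values were -0.02 and -0.26, and for Robo3 they were -1.21 and -0.72. In Atm-/- mice the NR difference was -0.11 for Sema7a, 0.00 for Robo4 and 0.87 ± 0.44 for Robo3, and in WT mice it was 0.06, 0.24 and 0.38.

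Further genes of the pathway were read from 2 lists. Of 35 measured genes among other guidance cues and receptors, 2 rose and 2 fell in Atm-/- NR against Atm-/- veh (11.4%, beside 11.5% of all named genes). Flrt3, an adhesion molecule that binds Unc5 receptors, rose by 0.53 and Lrrc4, a netrin G ligand, by 0.48. Sdc3, a heparan sulphate proteoglycan, fell by 0.51 and Rtn4r, the Nogo receptor, by 0.45. Of 65 measured signal transducers, 6 rose and 8 fell (21.5%), which became 6 in all (9.23%) without Atm-/- NR 3 and 5 (7.69%) on the 12 arrays with Y-linked signal, where 3.17% and 1.15% of all named genes were called. Without the 5 arrays high in Lhx2, limma called no gene of either list.

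The transducers that fell included Mical2, an oxidase of actin (-0.81 ± 0.13), Cfl1, the actin-severing cofilin (-0.59 ± 0.10), Tiam1, a Rac activator (-0.55 ± 0.14), and L1cam, an adhesion molecule (-0.46 ± 0.11). Arhgef11 and Arhgef12, exchange factors that bind plexin B receptors, went opposite ways, at -0.45 ± 0.07 and 0.45 ± 0.08 (limma adjusted p = 0.00574 and 0.00895). Sos1 (0.56 ± 0.10), Cdc42, a small GTPase of the cytoskeleton (0.47 ± 0.11), Cdk5, the kinase of neurons (0.41 ± 0.07), and Adam10, a protease that sheds ephrins (0.28 ± 0.06), rose. No gene of either list was called by limma in Atm-/- veh against WT veh, where 5 of the 35 other cues and receptors and 17 of the 65 transducers had an unadjusted p under 0.05, beside 16.8% of all named genes.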

How the data were processed

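RNA of cerebellar cortex, 1 mouse per array, was labelled with Cy3 and hybridised to 16 arrays, whose scanner files hold background-subtracted signal intensity per spot as deposited by the authors (Agilent Feature Extraction 12.0.3.1). The authors quantile normalized the log signals and deposited them as z-scores (a score per array), which served as an alternative. Log2 signals of non-control probes above background (at least 0.5 of a probe's spots, on all 4 arrays of a group) were quantile normalized, outlier-marked spots were removed, and 788 probes with a missing value were left out. Genes were named by RefSeq accession. Group means were fitted with limma 3.58.1 in R 4.3.3 (12 residual degrees of freedom), with Benjamini-Hochberg adjustment over 37253 probes, a step tested on simulated data. Alternatives were the methods' t-test, the rule of the supplementary methods, other scalings and filters, blocks and subsets of arrays. Named were called members, the 6 largest rises and falls without overlap, the largest change per family and genes within 20 Mb of Atm. Members and lists were chosen with earlier results of these data known. P-values set a group difference against the spread between mice on the same slide and row, and hold no spread between slides or rows. The number of arrays limits the precision.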

Additional observations from a re-analysis of the deposited data

Results flagged for a closer look

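Dixon's ratio, the gap between an extreme array and its nearest neighbour over the range of its group, exceeded its 95% critical value in 7 of 128 sets of 4 arrays (32 genes in 4 groups). Chance passes about 1 in 20 unselected sets, but these genes were named partly for groups without overlap or for large changes, so that rate is no yardstick for the 7. WT veh 4 was the high array in Efnb2 (0.9, at 11.98 against 11.47), Sema3b (0.869, at 11.79 against 9.67) and Plxnd1 (0.844, at 13.41 against 12.46). WT NR 1 was low in Slit2 (0.931, at 6.28 against 8.25) and high in Efna2 (0.905, at 10.46 against 9.13). Atm-/- veh 4 was low in Sema3b (0.983, at 8.91 against 9.27), and Atm-/- NR 3 was low in Ntn4 (0.938, at 7.03 against 8.18). None of the 7 called members was among these genes. No member of the 32 had NR differences without overlap that ran in opposite directions in the 2 genotypes. Plxnb2 alone lacked overlap in both genotypes, so no other member could have met this rule, and nothing follows from it.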

How the results depend on the processing

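In Atm-/- NR against Atm-/- veh, the 7 called members became 0 on the 12 arrays with Y-linked signal, 0 without the 5 arrays high in Lhx2 (both chosen after seeing the data), 16 by the methods' t-test at its own threshold (beside 33.8% of all named genes), 3 by that test after Benjamini-Hochberg adjustment (11.7%) and 2 by the rule of the supplementary methods (2.15%). Leaving out 1 array gave 0 to 8, with 0 without Atm-/- NR 3, 1 without Atm-/- veh 1, 2 without Atm-/- veh 4, 3 without Atm-/- NR 2 and 8 without WT veh 4. Of all named genes 3.17%, 2.97%, 4.6%, 5.31% and 15% were called in these fits, against 11.5% with all arrays. Of the 0 members called in the other comparisons, the methods' t-test gave 9 in Atm-/- veh against WT veh, 6 in WT NR against WT veh and 5 in Atm-/- NR against WT NR, beside 13.3%, 8.08% and 6.98% of all named genes. The rule of the supplementary methods gave 3, 1 and 1, beside 1.69%, 1.2% and 1.15%. Leaving out 1 array gave 0 there throughout, and all other alternatives stayed within 1.5 times of the main count. Within that margin the called genes still changed. In Atm-/- NR against Atm-/- veh, averaging all kept probes of a gene called 5 members, beside 6.82% of all named genes. These were Ephb1, Plxnb2, Sema4d, Sema4g and Sema5a, whose mean includes the dim probe described earlier. Sema6d, Unc5c and Robo2 were not called in that setting. The fit with a replicate block called 7, 0, 0, 0 and 0 members. The replicate numbers gave no sign of pairing the mice. Same-numbered arrays deviated with a median correlation of -0.02 (range -0.33 to 0.37), and other pairs with -0.02. With 4 arrays per group these values cannot exclude a pairing. A slide block gave identical values for the NR comparisons and could not be fitted for genotype. Without WT veh 4, 9 of the 65 members turned sign in Atm-/- veh against WT veh, with Slit1 going from -1.40 to 0.06, and without the 5 arrays the Slit median in Atm-/- NR against Atm-/- veh went from 0.72 to -0.06. Among the genes named by the rule, Robo4 turned in Atm-/- veh against WT veh with normexp (0.022) and in Atm-/- NR against Atm-/- veh with no dim filter (-0.0028) and without the 5 arrays (-0.021). On the 12 arrays Epha7 turned to 0.047 in Atm-/- NR against Atm-/- veh. Without the 5 arrays Unc5a turned to 0.034 and Sema7a to -0.017 in Atm-/- veh against WT veh, and Sema7a to -0.035 in WT NR against WT veh. With 1 array left out, values in Atm-/- veh against WT veh ranged from -0.18 to 0.065 for Robo4, from -0.089 to 0.026 for Unc50, from -0.42 to 0.034 for Unc5a and from -0.037 to 0.20 for Sema7a, those in Atm-/- NR against Atm-/- veh from -0.085 to 0.16 for Robo4 and from -0.18 to 0.0058 for Epha7, and Sema7a in WT NR against WT veh from -0.019 to 0.14. The median of the Dcc and Unc5 receptors in Atm-/- NR against Atm-/- veh was 0.01 when all probes of a gene were averaged.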
